A study of Homo sapiens with 25 samples.

Results

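Jurkat cells, an established human T-cell leukaemia line, were kept in medium with 25% histidine for 6 days and compared with the same cells kept at 100% histidine for 6 days. The 6 libraries of this comparison, 3 at 25% and 3 at 100%, were chosen by the histidine level and the day in the sample labels, out of 25 libraries in the series. RNA sequencing was used to ask how the cells respond to a limited supply of this amino acid. For comparison, the libraries of 12.5% (n = 2) and 50% histidine (n = 3) on day 6 and of 25% (n = 3) and 100% histidine (n = 2) on day 3 were used. All groups are of this 1 line, and the labels name no drug, genetic change or other treatment in any of them. The labels do not say which amount of histidine 100% stands for. Nor do they say that replicates came from separate cultures, and the p-values therefore rest on a spread between libraries that may be technical.

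Histidine is an amino acid that human cells cannot make and must take up from the medium. When an amino acid runs short, uncharged transfer RNA activates the kinase GCN2, which slows translation through eIF2 alpha and favours the transcription factor ATF4, whose targets include amino acid transporters, aminoacyl-tRNA synthetases and enzymes of amino acid synthesis. Other programmes answer to nutrients as well: SREBP factors drive sterol and fatty acid genes, the unfolded protein response drives chaperones of the endoplasmic reticulum, and the MondoA factor drives TXNIP.

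The deposited values are normalized counts per gene, and depth is not known from them. The 6 libraries summed to between 18.44 and 20.09 mega-counts, with 17932 to 19484 genes at a value of at least 10 and a share of 2.75% to 5.40% from mitochondrial transcripts. All 13 markers of a T-cell line, among them CD3E, CD5, LCK and TAL1, were above 0 in all 6 libraries, with sums of 65275 to 70454 at 25% and 60844 to 63380 at 100%. Some libraries also held transcripts of other cell types. Of 23 heart and striated muscle markers, replicate 2 at 25% held all above 0 and a sum of 81022, led by MYH7 (18207), against 1098 and 1140 in the other 2 libraries at 25% and 1171 to 1385 at 100%, where 3 or 4 of the markers were at 0. Erythroid markers summed to 4990, 4119 and 369 at 25% and to 331, 358 and 292 at 100%, led by HBA2 and HBB. Matrix markers varied within both groups (13694 to 27988 at 25%, 18044 to 25550 at 100%). On principal components, replicate 2 at 25% lay apart on the third and the fourth, and replicate 3 at 100% on the second. On that second component replicate 3 of 50% histidine on day 6 lay close to replicate 3 at 100% (-61.92 and -59.1).

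**Figure D1:**
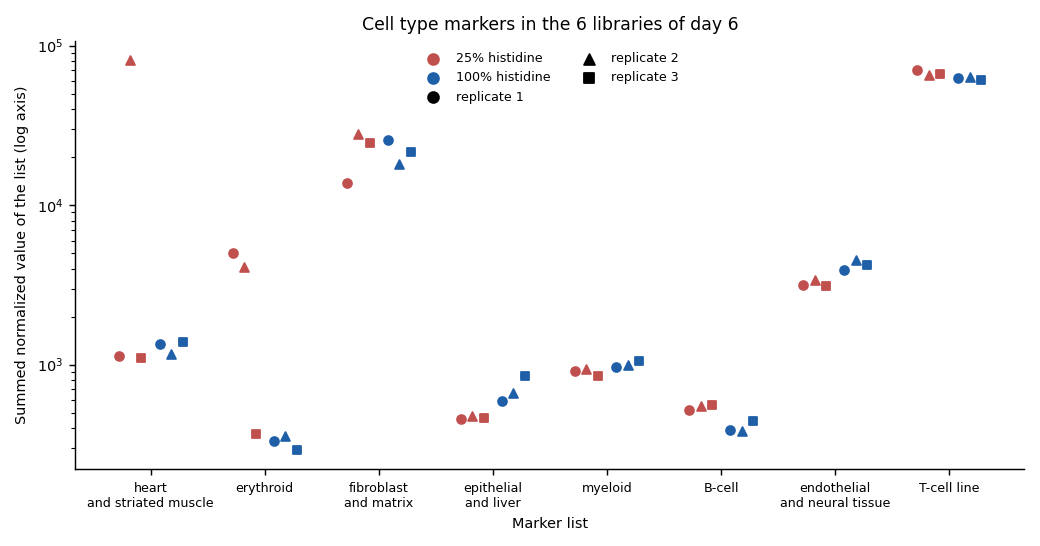
Summed normalized values (log axis) of 8 marker lists in the 6 libraries of day 6, with 25% histidine in red left of 100% in blue and a symbol for each replicate. Heart and striated muscle markers reached 81022 in replicate 2 at 25% and lay between 1098 and 1385 in the other 5 libraries.

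Each gene was tested with limma on log2(value + 1) in 1 fit over the 25 libraries, for the 22994 genes that reached a value of 10 in 2 or more libraries. A gene was called changed at a Benjamini-Hochberg adjusted p under 0.05, and log2 differences are 25% minus 100%. On day 6, 4645 genes (20.2%) were called, 2521 higher (11% of the genes tested) and 2124 lower (9.24%) at 25%. The libraries of both groups did not overlap for 7591 genes (33.0%). The largest rises and falls and the smallest p named for this contrast were taken from such genes alone. Their lack of overlap follows from that choice. The median log2 difference over all tested genes was -0.02, and 689 called genes differed by more than 1. Without replicate 2 at 25%, 4008 genes were called. With library position (the library number in the labels modulo 8) in the fit, 3012 were called. The modulus of 8 was chosen for this fit, and the labels name no plate or batch. The terms for position leave less data to estimate the spread, so calls can be lost without any effect of position. The libraries at 25% stand at positions 5 to 7 and those at 100% at 7, 0 and 1, so level and position overlap in part only. RNA was taken from whole cultures, so a change in the share of cells of a kind and a change in RNA per cell cannot be told apart. These shares of called genes are the background for the counts of list members that follow. They include many low genes, which were called less often. When only the 14328 genes that reached 50 in 3 or more libraries were tested, 4857 were called, 2668 higher and 2189 lower. That is a larger share, and lists of well-expressed genes stand out less against it.

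TXNIP, an arrestin-fold protein that restrains glucose uptake and binds thioredoxin, had the smallest p of the named genes and the largest rise. It held 12889, 12642 and 12844 normalized counts at 25%, against 543, 510.2 and 503 at 100%. The groups lay far apart, with little spread inside either, and TXNIP was 24.7-fold higher at 25% (log2 4.62, SE 0.08, adjusted p = 2.51e-23). The gene lies on chromosome 1 from 145992435 to 145996600 (GRCh38). ARRDC4, its close relative, which also lowers glucose uptake, held 362, 340 and 406 at 25%, against 83.6, 106 and 62.1 at 100% (log2 2.15, SE 0.19, adjusted p = 5.13e-09). ARRDC3, another arrestin-domain protein, rose by 0.59 (SE 0.09, adjusted p = 2.72e-05).

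The promoter of TXNIP is shown because a known motif for MondoA and its partner MLX can be read in it. A carbohydrate response element was searched as CACGNG, any 5 bases and CACGNG again on both strands of RefSeq promoter windows (250 bases before to 50 after the start, GRCh38.p14), a search chosen after the values were seen. It was present for 20 of 27305 genes (0.0732%), and for 1 of the 26 genes of the glycolysis and glucose entry list with a window. In TXNIP it begins 88 bases before the start. The window is chr1:145996530-145996829, minus strand, with the element in capitals. A match is a description of the letters, not of binding.
TXNIP: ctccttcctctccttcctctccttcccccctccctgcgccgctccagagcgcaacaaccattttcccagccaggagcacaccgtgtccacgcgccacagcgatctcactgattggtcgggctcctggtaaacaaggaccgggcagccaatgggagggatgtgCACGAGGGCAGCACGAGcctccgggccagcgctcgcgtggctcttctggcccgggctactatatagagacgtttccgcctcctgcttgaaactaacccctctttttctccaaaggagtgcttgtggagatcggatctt

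The enzymes of glycolysis and the genes of glucose entry were mostly lower at 25%. Of 30 listed genes 20 fell and 4 rose, with a median log2 difference of -0.47 against -0.02 over all genes. The 4 that rose were TXNIP, ARRDC4, ARRDC3 and ENO2, a neuronal-type enolase. The call of ENO2 (log2 0.22, adjusted p = 0.00571) was lost without replicate 2 at 25%. ALDOC, an aldolase, held 326, 272 and 348 at 25%, against 1496, 1686 and 1493 at 100%, 4.95-fold lower (log2 -2.31, SE 0.11, adjusted p = 2.94e-14). PDK1, the kinase that shuts off pyruvate dehydrogenase, held 568, 447 and 485 at 25%, against 1527, 1522 and 1374 at 100% (log2 -1.56, SE 0.12, adjusted p = 5.41e-10). LDHA, lactate dehydrogenase, fell by 0.94, GPI by 0.88, TPI1 by 0.83, SLC2A1, the main glucose carrier, by 0.82 and GAPDH by 0.74. PFKM, the muscle phosphofructokinase, was not called and held 175, 3519 and 201 at 25%, against 163, 152 and 155 at 100%. Its high value is in the library with heart muscle transcripts. What part other cells have in it was not tested.

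**Figure D2:**
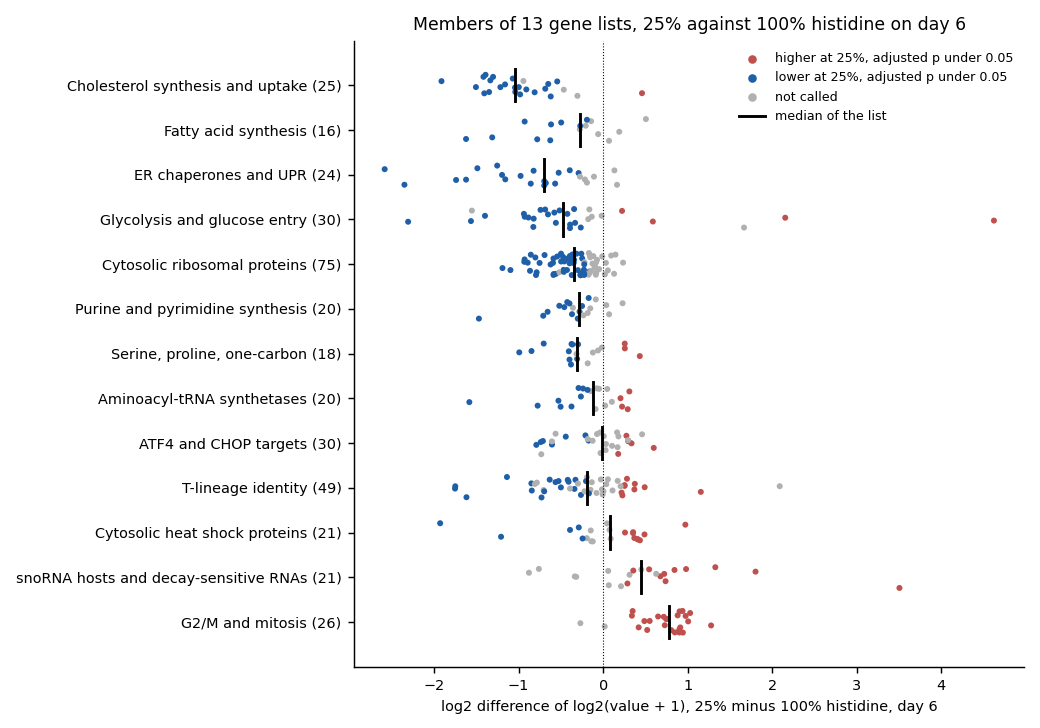
Log2 difference (25% minus 100% histidine, day 6) of each tested member of 13 gene lists, 1 point per gene, with the number of members in brackets. Red and blue points passed an adjusted p under 0.05 as higher or lower at 25%, grey points did not, and the black bar is the median of the list, which ran from -1.04 for cholesterol genes to 0.78 for G2/M genes.

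Chaperones of the endoplasmic reticulum, which fold secreted and membrane proteins, were lower at 25%. Of 24 listed genes of the chaperones and the unfolded protein response, 18 fell and 0 rose (median log2 -0.70). HSPA5, the HSP70 chaperone BiP (chromosome 9, 125234853 to 125241330), held 5415, 6532 and 5376 at 25%, against 43910, 28961 and 32307 at 100%. Every library at 25% was far below every library at 100%, and HSPA5 was 6.07-fold lower (log2 -2.58, SE 0.11, adjusted p = 9.29e-13). SDF2L1, a partner of BiP and its J proteins, held 357, 399 and 343 at 25%, against 2248, 1599 and 1816 at 100% (log2 -2.35, SE 0.11, adjusted p = 1.98e-14). MANF, a secreted cofactor of BiP, held 1527, 1637 and 1272 at 25%, against 5871, 4169 and 4852 at 100% (log2 -1.74, SE 0.10, adjusted p = 1.04e-12). In all 3 genes replicate 1 at 100% was the highest and replicate 2 the lowest of its group.

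HSP90B1, the endoplasmic HSP90, held 6920, 8260 and 6914 at 25%, against 29532, 18171 and 21479 at 100% (log2 -1.62, SE 0.12, adjusted p = 5.05e-09). CALR, the lectin chaperone calreticulin, held 23173, 21486 and 21163 at 25%, against 72294, 54693 and 58847 at 100% (log2 -1.49, SE 0.07, adjusted p = 9.29e-13). Its membrane-bound relative CANX fell less (log2 -0.57). The disulphide isomerases PDIA4 and PDIA6 fell by 1.25 and 1.16, CRELD2 by 1.20 and HYOU1 by 0.70. XBP1, the transcription factor whose spliced form drives this programme, fell by 0.86. The sensors ATF6 (log2 0.13) and ERN1 (-0.11) were not called, and EIF2AK3, the sensor PERK, which stands in the list of eIF2 alpha kinases, fell by 0.47. The list also holds CRYZL1, a quinone oxidoreductase-like gene that is no chaperone, which fell by 0.29.

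Promoters of these genes are shown because the endoplasmic reticulum stress response element, bound by ATF6 and XBP1 together with the CCAAT factor NF-Y, can be read in several that fell. Searched as CCAAT, any 9 bases and CCACG on both strands, it was present for 25 of 27305 genes (0.0916%) and for 7 of the 23 listed genes with a window (30.4%): CALR, CANX, CRELD2, HSP90B1, HSPA5, PDIA6 and XBP1. The first base of the element, read on the gene's strand, lies 66 bases before the start in HSPA5, 194 and 89 in HSP90B1, 225 in CALR, 9 in CANX, 80 in CRELD2 and 52 in XBP1. It is in capitals below, and in CALR, in CRELD2 and at the nearer site of HSP90B1 it is on the opposite strand and so reads in reverse complement. The windows are chr9:125241294-125241593 (minus strand) for HSPA5, chr12:103930160-103930459 (plus) for HSP90B1 and chr19:12938359-12938658 (plus) for CALR. The shorter ones are chr5:179698763-179698811 (plus) for CANX, chr22:49918539-49918587 (plus) for CRELD2 and chr22:28800588-28800636 (minus) for XBP1.
HSPA5: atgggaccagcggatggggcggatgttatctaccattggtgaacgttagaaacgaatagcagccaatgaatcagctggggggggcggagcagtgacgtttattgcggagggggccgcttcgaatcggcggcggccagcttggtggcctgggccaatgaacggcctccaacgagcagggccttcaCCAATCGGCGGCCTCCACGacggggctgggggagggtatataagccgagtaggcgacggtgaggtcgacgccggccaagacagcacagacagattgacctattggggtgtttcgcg
HSP90B1: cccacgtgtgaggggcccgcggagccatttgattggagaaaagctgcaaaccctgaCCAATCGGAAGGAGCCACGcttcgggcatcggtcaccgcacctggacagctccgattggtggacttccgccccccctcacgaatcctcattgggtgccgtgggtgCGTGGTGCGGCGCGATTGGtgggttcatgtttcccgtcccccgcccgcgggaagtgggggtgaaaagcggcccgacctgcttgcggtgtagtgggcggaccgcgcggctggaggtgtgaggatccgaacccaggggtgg
CALR: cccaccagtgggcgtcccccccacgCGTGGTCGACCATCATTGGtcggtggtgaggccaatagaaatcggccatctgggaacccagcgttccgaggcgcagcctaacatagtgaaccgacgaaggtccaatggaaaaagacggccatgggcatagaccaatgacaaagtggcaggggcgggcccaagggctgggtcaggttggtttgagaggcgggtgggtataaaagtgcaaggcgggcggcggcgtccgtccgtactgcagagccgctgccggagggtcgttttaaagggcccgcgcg
CANX: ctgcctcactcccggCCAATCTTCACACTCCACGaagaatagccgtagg
CRELD2: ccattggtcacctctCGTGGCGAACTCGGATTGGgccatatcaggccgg
XBP1: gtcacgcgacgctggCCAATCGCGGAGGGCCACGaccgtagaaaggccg

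Genes of cholesterol synthesis and uptake, the targets of SREBP2, were lower as a group at 25%. Of 25 listed genes 21 fell and 1 rose (median log2 -1.04), and for 24 of the 25 the libraries of both groups did not overlap, against 33.0% of all tested genes. HMGCS1, which makes the precursor HMG-CoA, held 1087, 1106 and 1047 at 25%, against 2551, 3181 and 2492 at 100% (log2 -1.33, SE 0.07, adjusted p = 1.90e-13). LSS, which closes the sterol ring system, held 1820, 1954 and 1914 at 25%, against 4904, 5806 and 5478 at 100% (log2 -1.51, SE 0.07, adjusted p = 9.24e-15). CYP51A1, the lanosterol demethylase, held 163, 188 and 245 at 25%, against 707, 832 and 690 at 100% (log2 -1.91, SE 0.16, adjusted p = 8.52e-10). All 3 enzymes had their groups well apart.

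The regulators of the pathway moved with its enzymes. INSIG1, which holds SREBP in the endoplasmic reticulum, held 2333, 2044 and 2110 at 25%, against 5403, 6355 and 5298 at 100% (log2 -1.39, SE 0.07, adjusted p = 2.45e-13). SREBF2, the gene of SREBP2 itself, fell by 0.91 (SE 0.06, adjusted p = 3.27e-11). DHCR7, the last enzyme of the path, fell by 1.41 and SQLE, squalene epoxidase, by 1.16. PMVK, a kinase of the mevalonate path, went against the list, at 1179, 1233 and 1058 at 25%, against 798, 838 and 883 at 100% (log2 0.46, SE 0.09, adjusted p = 0.000363). MVK and NSDHL were not called.

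Fatty acid synthesis had 9 of 16 lower and 0 higher (median log2 -0.27). SCD, which desaturates stearate, held 14474, 15373 and 16257 at 25%, against 36933, 41656 and 36033 at 100% (log2 -1.31, SE 0.08, adjusted p = 3.64e-11). FADS2, a desaturase of polyunsaturated fatty acids, held 3595, 3890 and 3344 at 25%, against 10305, 12255 and 10810 at 100% (log2 -1.62, SE 0.07, adjusted p = 3.90e-15). FASN, fatty acid synthase, fell by 0.63, and FADS1 by 0.93. FADS1 and FADS2 overlap in the annotation, and the split of reads between both is uncertain. A sterol response element, searched as TCACNCCAC on both strands, was in the window of 1 of 18 listed cholesterol genes, SREBF2, and of 1.39% of all genes. No match says only that these letters are not in the window.

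Genes of the G2 phase and of mitosis were higher at 25%. Of 26 listed genes 24 rose and 0 fell (median log2 0.78). Without replicate 2 at 25%, 24 were higher and 1 was lower. PLK1, a kinase that drives entry into mitosis (chromosome 16, 23677656 to 23690367), held 5025, 5364 and 4647 at 25%, against 1949, 2237 and 2019 at 100%. The 2 groups were separate, and PLK1 was 2.42-fold higher (log2 1.28, SE 0.07, adjusted p = 7.64e-13). MKI67, the proliferation antigen Ki-67, held 18567, 20698 and 19048 at 25%, against 10100, 9644 and 9287 at 100% (log2 1.01, SE 0.08, adjusted p = 1.05e-09). KIF20A, a kinesin of cytokinesis, held 1835, 1882 and 1659 at 25%, against 856, 1005 and 783 at 100% (log2 1.03, SE 0.09, adjusted p = 2.35e-09). TPX2, a spindle assembly factor, held 10062, 10357 and 9286 at 25%, against 5064, 5376 and 5048 at 100% (log2 0.94, SE 0.05, adjusted p = 2.97e-13).

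Mitotic cyclins and the activators of their destruction moved alike. CCNB2 rose by 0.98, CCNB1 by 0.85, CCNA2 by 0.72, CDC20, which activates the anaphase-promoting complex, by 0.91, AURKA by 0.88 and CDK1 by 0.42. AURKB, the kinase of the chromosomal passenger complex, held 809, 938 and 753 at 25%, against 987, 1005 and 1009 at 100%, and was not called (log2 -0.27, SE 0.11, adjusted p = 0.103). TTK, a spindle checkpoint kinase, was also not called (0.02, SE 0.11). HMGB2, a chromatin protein of dividing cells that is not on the list and was picked after its value was seen, held 11140, 13703 and 10086 at 25%, against 4792, 5192 and 4668 at 100% (log2 1.24, SE 0.08). Genes of the G1/S transition and DNA replication did not move as a group, with 2 of 30 higher and 7 lower (median log2 -0.0013). MCM2, a subunit of the replicative helicase, fell by 0.72 and CDT1, which loads it, by 0.53, while RFC4, a clamp loader subunit, rose by 0.51 and E2F2 by 0.40. Without replicate 2 at 100%, and also with library position in the fit, 2 G1/S genes were higher and 4 lower.

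The cell cycle homology region, bound by the DREAM and MuvB complexes, was searched as TTTGAA on both strands. It is short, and was present for 18.2% of all genes and for 14 of the 21 G2/M genes with a window (66.7%). PLK1, CDC20 and CCNB2 are shown because each rose and each has the element within the window, 29 bases before the start in PLK1 and CCNB2. In CDC20 it is present at 178 bases on the opposite strand, which is shown, and at 65 bases on the gene's strand. The windows are chr16:23678639-23678938 for PLK1, chr1:43358788-43358823 for CDC20 and chr15:59105102-59105137 for CCNB2, all on the plus strand, with the element in capitals.
PLK1: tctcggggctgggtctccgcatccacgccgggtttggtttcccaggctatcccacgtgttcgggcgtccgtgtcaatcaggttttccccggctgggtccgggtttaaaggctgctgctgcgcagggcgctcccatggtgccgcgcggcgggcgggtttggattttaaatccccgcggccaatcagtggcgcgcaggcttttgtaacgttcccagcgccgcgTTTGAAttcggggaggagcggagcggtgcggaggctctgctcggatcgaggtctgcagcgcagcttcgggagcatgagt
CDC20: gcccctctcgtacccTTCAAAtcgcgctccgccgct
CCNB2: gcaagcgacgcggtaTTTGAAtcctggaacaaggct

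**Figure D3:**
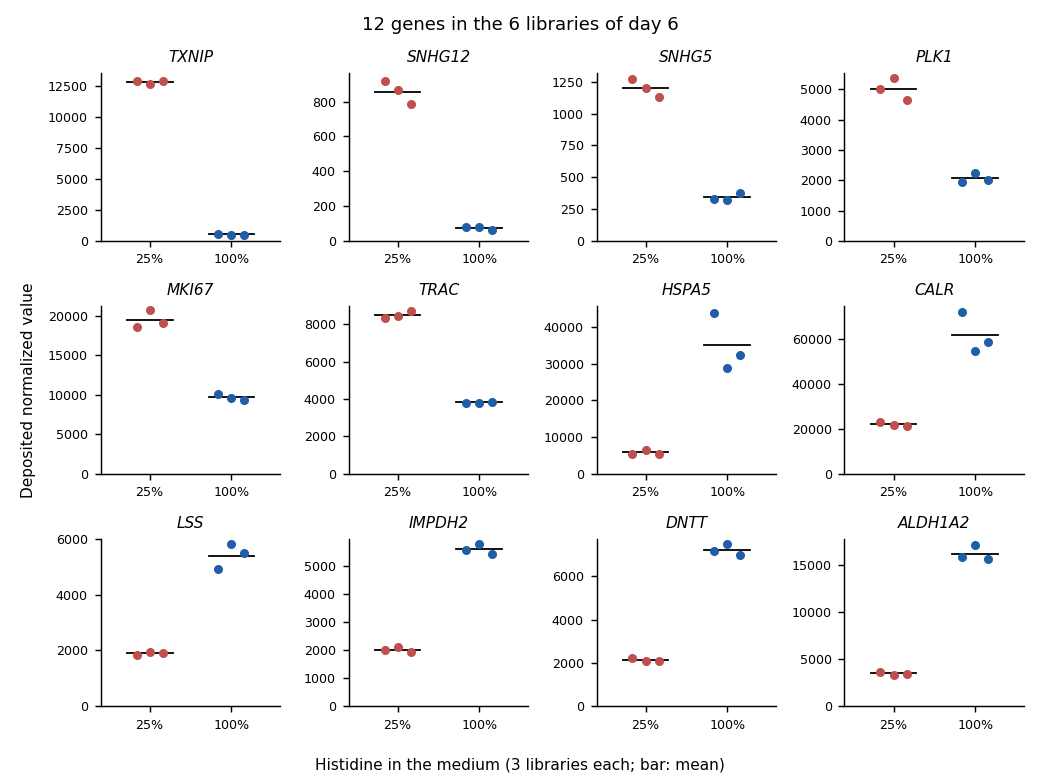
Deposited normalized values of 12 genes in the 6 libraries of day 6, with 25% histidine left of 100% and a bar at the mean of each group. In all 12 genes the 3 libraries at 25% lie on 1 side of the 3 at 100%, above them for TXNIP, SNHG12, SNHG5, PLK1, MKI67 and TRAC and below them for the others. TXNIP, SNHG12, SNHG5, HSPA5, IMPDH2, DNTT and ALDH1A2 were chosen among genes without overlap.

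Genes of cytosolic ribosomal proteins were lower at 25%, by small steps. Of 75 genes 49 fell and 0 rose (median log2 -0.34). RPL3 held 26434, 23950 and 23962 at 25%, against 53151, 53670 and 52052 at 100% (log2 -1.10, SE 0.05, adjusted p = 6.92e-14). RPL7A fell by 1.19, RPS29 by 0.93 and RPS15 by 0.87. Many of these genes have near-identical pseudogene copies, so single values are uncertain. Translation factors had 5 of 22 higher and 10 lower (median -0.08): EIF4B, a helper of the eIF4A helicase, fell by 0.70 and EEF1A1, the elongation factor that brings charged transfer RNA to the ribosome, by 0.60, while EIF4G2, a scaffold for cap-independent initiation, rose by 0.41. The 10 lower translation factors became 4 without replicate 3 at 25% and 6 without replicate 1 or replicate 2 at 100%. Under quantile normalization EEF1A1 and PABPC1, the poly(A)-binding protein, were no longer called, and PABPC1 changed sign. Ribosome biogenesis had 2 of 26 higher and 6 lower (median -0.10), with FBL, the ribosomal RNA methylase, at -0.77 and its small nucleolar complex partner NOP56 at 0.56. Without replicate 2 at 25%, 1 biogenesis gene was higher and 6 were lower.

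Host genes of small nucleolar RNAs, whose spliced transcripts are cleared by nonsense-mediated decay, were higher. Of 21 listed hosts and other decay-sensitive genes 11 rose and 0 fell (median log2 0.45). Without replicate 1 at 25%, 9 were higher and 1 lower, and with position in the fit 9 and 0. SNHG12 held 921, 867 and 786 at 25%, against 81.6, 80.6 and 62.9 at 100%, 11.4-fold higher (log2 3.50, SE 0.16, adjusted p = 8.16e-15). SNHG5 held 1269, 1199 and 1128 at 25%, against 329, 323 and 377 at 100% (log2 1.80, SE 0.14, adjusted p = 3.58e-10). These 2 genes were among the largest rises, which were taken from genes whose groups did not overlap. SNHG32 rose by 1.33, SNHG29 by 0.98 and GAS5 by 0.68. GABARAPL1, an autophagy gene on the list for its decay-sensitive transcripts, rose by 0.72.

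The targets of ATF4 and CHOP went both ways. Of 30 listed genes 6 rose and 7 fell (median log2 -0.01), and with library position in the fit 3 were higher and 5 lower. CEBPG, a partner of ATF4, held 4573, 4740 and 4520 at 25%, against 3207, 2985 and 2949 at 100% (log2 0.60, SE 0.05, adjusted p = 5.97e-09). ASNS, asparagine synthetase, held 1362, 1274 and 1159 at 25%, against 1783, 2134 and 1865 at 100%, a fall with no overlap (log2 -0.61, SE 0.08, adjusted p = 4.79e-06). DDIT3, which encodes CHOP, held 646, 727 and 701 at 25%, against 1299, 969 and 1216 at 100% (log2 -0.74, SE 0.11, adjusted p = 1.42e-05). DDIT4, an inhibitor of mTORC1, fell by 0.71, CTH, which makes cysteine, by 0.79, HERPUD1, also a target of the unfolded protein response, by 0.44 and ATF4 itself by 0.21.

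Small rises were less steady in this list. TRIB3, a pseudokinase that restrains ATF4, held 16494, 16485 and 14945 at 25%, against 14919, 10760 and 12603 at 100% (log2 0.34, SE 0.08, adjusted p = 0.0027), and was not called with library position in the fit or when the fit held the compared groups alone (adjusted p up to 0.118). CHAC1, a glutathione-degrading enzyme, rose by 0.30 (adjusted p = 0.00868) but was not called without replicate 1 at 100% (up to 0.0745). SESN2, a leucine sensor upstream of mTORC1, was at 0.18 (adjusted p = 0.0394), and the call was lost in 10 of the settings tried. XPOT, which exports transfer RNA from the nucleus, rose by 0.27 and PPP1R15A, the phosphatase subunit that reverses eIF2 alpha phosphorylation, by 0.30, the second not with position in the fit. ATF3 (log2 -0.07), ATF5 (0.03) and PSAT1 (0.01) were not called.

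Of 20 cytosolic aminoacyl-tRNA synthetases 4 rose and 9 fell (median log2 -0.12). HARS1, which charges histidine, held 1756, 1731 and 1580 at 25%, against 1394, 1542 and 1458 at 100%. The groups did not overlap, but the difference was small (log2 0.21, SE 0.07, adjusted p = 0.0300) and the call was lost in 9 settings, among them without replicate 2 at 25% and with position in the fit. QARS1, the glutamine enzyme, held 1565, 1650 and 1677 at 25%, against 4824, 5003 and 4834 at 100%, a 3.00-fold fall (log2 -1.58, SE 0.07, adjusted p = 9.12e-15). FARSA, a subunit of the phenylalanine enzyme, fell by 0.78, while SARS1 rose by 0.31 and MARS1 by 0.29. Without replicate 1 or replicate 2 at 25%, without replicate 1 or replicate 3 at 100%, or with position in the fit, 2 synthetases were called higher, and 8 or 9 lower.

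Of 21 amino acid transporters 2 rose and 5 fell (median log2 -0.10). SLC7A11, the cystine carrier, rose by 0.43 and SLC7A5, which carries large neutral amino acids and histidine, by 0.17. SLC38A5, a carrier of glutamine and histidine, held 565, 600 and 596 at 25%, against 828, 988 and 866 at 100% (log2 -0.60, SE 0.08, adjusted p = 2.08e-06). SLC7A1, the arginine and lysine carrier, fell by 0.43 and SLC6A9, a glycine carrier, by 0.77. Genes that handle histidine had 5 of 18 higher and 4 lower (median -0.03). CNDP2, which cleaves histidine-containing dipeptides, rose by 0.27 and SETD3, which methylates a histidine of actin, by 0.38. EEF2, the elongation factor whose diphthamide is made from histidine, fell by 0.49. HAL, which breaks histidine down, held 8.55, 0 and 9.37 at 25%, against 30.2, 29.7 and 29.7 at 100% (log2 -2.74, adjusted p = 0.0299), and the call was lost in 8 settings. CARNS1, which makes the dipeptide carnosine, held 14.9, 25.9 and 13.3 at 25%, against 0, 17.3 and 0 at 100%, and its call (adjusted p = 0.0442) was lost in 12 settings. The count of this list changed with single libraries. It was 3 higher and 4 lower without replicate 1 at 25%, and 3 and 3 without replicate 2 at 25%, with a median of 0.12. It was 3 and 3 without replicate 1 at 100%, 5 and 2 without replicate 2 at 100%, 3 and 2 without replicate 3 at 100%, and 3 and 1 with position in the fit.

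Of 18 genes of serine, proline and one-carbon synthesis 3 rose and 10 fell (median log2 -0.31). CBS, the first enzyme from homocysteine to cysteine, held 1839, 1877 and 1663 at 25%, against 3432, 3587 and 3679 at 100% (log2 -0.99, SE 0.07, adjusted p = 1.71e-11). PYCR1, the last enzyme of proline synthesis, fell by 0.85, PHGDH, the first of serine synthesis, by 0.31, and GOT1, an aspartate transaminase, rose by 0.43. Of 20 genes that make purines and pyrimidines 12 fell and 0 rose (median -0.29). IMPDH2, which sets the pace of guanine nucleotide synthesis, held 2024, 2101 and 1953 at 25%, against 5591, 5796 and 5457 at 100%, 2.77-fold lower with little spread in either group (log2 -1.47, SE 0.06, adjusted p = 3.38e-16). GMPS, the next enzyme on that path, fell by 0.66 and PRPS2, which makes the ribose donor, by 0.71.

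Genes of T-lineage identity split. Of 49 genes 19 fell and 9 rose (median log2 -0.20). DNTT, the terminal transferase of immature lymphocytes that adds bases at receptor gene joins, held 2217, 2093 and 2097 at 25%, against 7141, 7460 and 6995 at 100%, 3.37-fold lower (log2 -1.75, SE 0.05, adjusted p = 4.33e-19). RAG2, which cuts receptor genes together with RAG1, held 275, 266 and 327 at 25%, against 984, 1019 and 915 at 100% (log2 -1.75, SE 0.11, adjusted p = 7.76e-12). RAG1 was at -0.41 (adjusted p = 0.00793), and its call was lost without replicate 2 at 25%. RAG1 and RAG2 overlap in the annotation. CD1D, a lipid-presenting molecule of cortical thymocytes, fell by 1.62, CD1B by 0.73, CD5, which damps receptor signals, by 0.85 and CD7 by 0.63.

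The 9 T-lineage genes that rose were TRAC, CD3D, CD3E, LCK, FYN, LCP2, BCL11B, TAL1 and CXCR4. TRAC, the constant region of the T-cell receptor alpha chain, held 8326, 8442 and 8731 at 25%, against 3803, 3792 and 3852 at 100%, 2.23-fold higher with narrow groups (log2 1.16, SE 0.05, adjusted p = 1.61e-14). TRBC2, a beta chain constant region picked after its value was seen, rose by 0.85 (SE 0.06), CD3E, a chain of the CD3 complex, by 0.25 and the receptor-proximal kinases FYN by 0.37 and LCK by 0.25. TAL1, the leukaemic transcription factor of this line, rose by 0.49 and BCL11B by 0.28. Other CD3 chains differed. CD3D was at 0.22 (SE 0.07, adjusted p = 0.0194), a call lost in 7 settings, and CD3G was not called (-0.14, SE 0.08, adjusted p = 0.244). CD247, the zeta chain, held 1754, 1721 and 1672 at 25%, against 2202, 2176 and 2083 at 100%, lower with no overlap (log2 -0.33, SE 0.08, adjusted p = 0.00381). ZAP70 (-0.01) and GATA3 (0.00) were not called.

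Of 7 GIMAP genes, small GTPases of lymphocyte survival, 5 fell and 0 rose (median log2 -0.70), with GIMAP4 at 128, 82.5 and 114 at 25%, against 394, 477 and 401 at 100% (log2 -1.98, SE 0.30, adjusted p = 3.22e-05). NOTCH receptors and targets had 1 of 21 higher and 4 lower, with NOTCH1 at -0.48 and its target DTX1 at -0.73. Without replicate 1 at 25% the count was 2 higher and 3 lower, and with position in the fit 1 and 2. T-cell activation and immediate early genes had 5 of 43 higher and 3 lower (median 0.10), and without replicate 3 at 25% 4 higher and 6 lower (median -0.10). Of 43 interferon-stimulated genes 9 rose and 1 fell (median 0.22), with B2M at 0.45 and ISG15 at 0.61, and IFI16, a DNA sensor, at -0.39. Without replicate 3 at 25%, 8 were higher and 2 lower. The shares called in either direction were 23.8% for NOTCH, 18.6% for activation and 23.3% for interferon genes. All 3 were close to the 20.2% of all tested genes. The list of FOXO factors and quiescence genes had 8 of 26 higher and 2 lower (median 0.07). This became 5 and 2 without replicate 2 at 25% (median -0.0091) and 4 and 2 with position in the fit. Without replicate 3 at 25% it was 6 and 3 (median -0.01).

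Cytosolic heat shock proteins had 9 of 21 higher and 5 lower on day 6 (median log2 0.08). Without replicate 2 at 25%, and with position in the fit, 8 were higher and 3 lower, and without replicate 1 at 100% 9 were higher and 3 lower. HSPA4, an HSP110 family nucleotide exchange factor, rose by 0.37, DNAJA1 by 0.41, DNAJB6 by 0.49 and HSP90AA1 by 0.26, while HSP90AB1 fell by 0.29 and the mitochondrial HSPD1 by 0.24. HSPA1B, an inducible HSP70, held 311, 242 and 323 at 25%, against 1124, 549 and 489 at 100% (log2 -1.21, SE 0.31, adjusted p = 0.00997), and its call was lost without replicate 1 at 100%. HSPA6, another inducible HSP70, held 50.5, 17.3 and 53.4 at 25%, against 309, 103 and 87.1 at 100% (log2 -1.93, SE 0.58, adjusted p = 0.0237), a call lost in 4 settings, among them without replicate 2 at 25% and without replicate 1 at 100%. HSPA1A is a near-identical copy of HSPA1B, and the split of reads between both is uncertain. DNAJB1, an HSP70 partner that overlaps TECR in the annotation, was not called (-0.19, SE 0.08, adjusted p = 0.111). The chaperonin and tubulin list had 6 of 17 higher and 6 lower, with chaperonin subunits CCT4, CCT5, CCT7, CCT8 and TCP1 and TUBB the lower ones. Its median of 0.17 became -0.11 without replicate 2 at 25%, with 4 higher and 6 lower. Without replicate 1 at 100% 3 were higher and 5 lower, and with position in the fit 2 and 4.

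The remaining lists went both ways or moved by little. Of 30 autophagy and lysosome genes 10 rose and 0 fell (median log2 0.11), with BECN1, a core autophagy factor, at 0.63, TFE3, a lysosomal transcription factor, at 0.95 and MAP1LC3B at 0.42. Without replicate 2 at 25%, without replicate 1 or 3 at 100%, or with position in the fit, 7 of this list were higher and 0 lower. Without replicate 3 at 25%, 10 were higher and 1 lower. The NRF2, thioredoxin and glutathione list had 6 of 27 higher and 4 lower, with TXNRD1 at 0.56 and NQO1 at 0.48 against TKT, transketolase of the pentose phosphate pathway, at -0.93. With position in the fit 3 of this list were higher and 5 lower. Iron and polyamine genes had 6 of 17 higher and 7 lower, with FTH1, ferritin heavy chain, at 0.32 and TFRC, the transferrin receptor, at -0.53. Without replicate 2 at 100% 6 were higher and 4 lower. Of 17 cyclins, CDK inhibitors and MYC network genes 5 rose and 2 fell, and MYC held 3776, 3477 and 3614 at 25%, against 6606, 7609 and 6993 at 100% (log2 -0.96, SE 0.07, adjusted p = 1.85e-10). CDKN1A was not called (0.01, SE 0.26). Without replicate 2 at 25% 6 of these genes were higher and 4 lower, and with position in the fit 3 and 2. Regulators of eIF2 alpha and mTORC1 had 4 of 21 higher and 2 lower, with CASTOR2, a relative of the arginine sensor, at 0.42 and DEPTOR, an mTOR inhibitor, at -1.35. This count was 2 and 3 without replicate 1 at 25%, 3 and 1 without replicate 2 at 100%, 2 and 1 without replicate 3 at 100%, and 2 and 2 with position in the fit.

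The p53-type damage response had 4 of 21 higher and 2 lower, the BCL2 family 4 of 16 and 2, the nuclear-encoded respiratory chain 3 of 32 and 2, and replication-dependent histones 3 of 16 and 0. Neural-type and surface adhesion genes had 2 of 24 higher and 4 lower. None of 13 mitochondrially encoded mRNAs was called (median log2 0.03), nor at an adjusted p under 0.05 in any setting tried. Of 12 genes often used as housekeeping references 6 rose and 4 fell. Several of these small counts changed when 1 library was left out. The p53-type list had 2 higher and 1 lower without replicate 3 at 25% or replicate 3 at 100%, 2 and 2 without replicate 2 at 100%, and 1 and 1 with position in the fit. The BCL2 family had 2 and 2 without replicate 1 at 25% and 2 and 1 with position in the fit. The respiratory chain had 3 and 5 without replicate 2 at 25%. Histones had 1 higher without replicate 1 or 3 at 25% or replicate 3 at 100%, and 0 without replicate 1 at 100% or with position in the fit. The neural-type list had 4 and 4 without replicate 1 and 1 and 4 without replicate 2 at 25%. Of the marker lists of other cell types, heart and erythroid genes had 0 called of 17 and of 7, matrix 2 of 19 lower, epithelial and liver 2 of 11 lower, myeloid 1 of 11 higher and 1 lower, B-cell 2 of 6 higher and endothelial and neural tissue 1 of 11 higher and 2 lower. With 1 library left out, the called heart genes reached 4 higher, without replicate 3 at 25%, and 3 without replicate 1 at 25%. Erythroid genes reached 1 higher without replicate 3 at 25%, and matrix genes 2 higher and 2 lower without replicate 1 at 25%. Epithelial and liver genes had 1 lower without replicate 3 of either group, and endothelial and neural tissue genes 1 higher and 1 lower without replicate 2 at 100%. The higher myeloid gene was not called without replicate 2 at 25% or without any 1 of the libraries at 100%. B-cell genes had 1 higher without replicate 1 or 2 at 25% or replicate 2 at 100%, and 0 without replicate 1 at 100%.

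Among single genes chosen by size, several were low in 1 group. SDK2, a cell adhesion protein, held 7.36, 18.3 and 22.0 at 25%, against 565, 622 and 436 at 100% (log2 -5.11, SE 0.71, adjusted p = 3.29e-05). CCR8, a chemokine receptor, held 19.6, 16.4 and 36.5 at 25%, against 163, 182 and 175 at 100% (log2 -2.88, SE 0.33, adjusted p = 2.56e-07). CEBPE, a transcription factor of granulocytes, held 82.2, 52.8 and 52.0 at 25%, against 341, 361 and 365 at 100% (log2 -2.53, SE 0.24, adjusted p = 1.16e-08). The rule that chose these 3 took only genes whose groups did not overlap. GPR183, an oxysterol receptor, fell by 2.42, and CFTR, HTR2B, ESPN and CX3CR1 also fell, with means of at most 10.5 at 25% and at most 68.8 at 100%. ERFE, a hormone of iron metabolism, was at -2.36 (adjusted p = 0.0385), a call lost in 10 settings.

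Well-expressed genes with the smallest p included ALDH1A2, a retinaldehyde dehydrogenase, at 3679, 3330 and 3418 at 25%, against 15777, 17060 and 15609 at 100% (log2 -2.22, SE 0.06, adjusted p = 8.29e-20). CHI3L2, a chitinase-like secreted protein, held 2209, 2126 and 2137 at 25%, against 8809, 10275 and 9254 at 100% (log2 -2.13, SE 0.07, adjusted p = 1.97e-17). Both were chosen among genes whose groups did not overlap. KLF10, a zinc finger factor induced by TGF beta, rose by 1.89, CHGB, a granin of secretory vesicles, by 2.37, CEP112, a centrosomal protein, by 2.01 and CNTN4, a neural adhesion protein, by 2.76. MYOM1, a muscle protein, held 135, 720 and 147 at 25%, against 70.2, 61.0 and 71.2 at 100%, the highest value again in the library with heart muscle transcripts. Without that library MYOM1 was still called at a log2 difference of 1.06 in place of 1.84, and when the fit held the compared groups alone it was not (adjusted p = 0.149).

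The same contrast was measured on day 3 with other libraries, and the difference between the days was tested directly. On day 3, 4490 genes (19.5%) were called, 2256 higher (9.81%) and 2234 lower (9.72%) at 25%. Of the day 6 calls 49.3%, and of the day 3 calls 51.0%, were called on both days in the same direction (2289 genes), and 92 were called in opposite directions. The day 6 minus day 3 difference was called for 1086 genes (4.72%), 624 of them higher (2.71% of the genes tested) and 462 lower (2.01%). The higher ones made up 57.5% of these calls, but 32.9% when libraries were scaled to equal totals and 42.8% after quantile normalization. With library position in the fit 407 genes were called, and 654 without replicate 3 of 100% on day 3.

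Sterol genes fell on both days. The difference between days was called for 13 of 25 cholesterol genes, all higher, and for 7 of 16 fatty acid genes. HMGCS1 averaged 1080 ± 29.8 at 25% and 2741 ± 382 at 100% on day 6 (SD, n = 3 each). On day 3 it averaged 1261 ± 32.9 at 25% (n = 3) and 10945 ± 588 at 100% (n = 2). The level at 25% was close on both days while that at 100% was far higher on day 3 (log2 difference between days 1.78, SE 0.10, adjusted p = 2.96e-11). INSIG1 differed by 0.94.

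For most heat shock genes the contrast was more negative on day 3 than on day 6. Of 21 listed genes 16 fell and 2 rose on day 3 (median log2 -1.08), and the difference between days was called for 18 higher and 1 lower. DNAJB1 averaged 2254 ± 125 at 25% and 2596 ± 421 at 100% on day 6, and 2466 ± 130 at 25% and 24182 ± 369 at 100% on day 3 (3.10, SE 0.13, adjusted p = 7.19e-15). HSPA1B averaged 292 ± 43.7 at 25% and 721 ± 350.4 at 100% on day 6, and 267 ± 124 at 25% and 19944 ± 1811 at 100% on day 3 (5.10, SE 0.47, adjusted p = 2.61e-06). HSPA8, the constitutive HSP70, averaged 8293 ± 549 at 25% and 8044 ± 737 at 100% on day 6, and 4524 ± 384 at 25% and 17922 ± 1285 at 100% on day 3 (2.03, SE 0.13, adjusted p = 5.11e-10). In DNAJB1 and HSPA1B it was the level at 100% that differed between days.

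Endoplasmic reticulum chaperones showed the opposite order. On day 3, 5 of 24 rose and 6 fell (median log2 0.04), and the difference between days was called for 17, all lower. HSPA5 averaged 5774 ± 656 at 25% and 35059 ± 7845 at 100% on day 6, and 5311 ± 166 at 25% and 11992 ± 262 at 100% on day 3 (-1.41, SE 0.16, adjusted p = 1.72e-05). MANF averaged 1479 ± 187 at 25% and 4964 ± 856 at 100% on day 6, and 1509 ± 69.97 at 25% and 1821 ± 86.4 at 100% on day 3 (-1.47, SE 0.15, adjusted p = 3.44e-07). The 25% levels of both genes were alike on both days, and the 100% level was higher on day 6. HYOU1 was higher at 25% on day 3 (log2 0.56) and lower on day 6 (-0.70), a difference of -1.25 (SE 0.15, adjusted p = 1.55e-05).

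Mitotic genes stood higher against 100% on day 6 than on day 3. On day 3, 5 of 26 rose and 6 fell (median log2 -0.15), and the difference between days was called for 23, all higher. PLK1 averaged 5012 ± 359 at 25% and 2068 ± 150.1 at 100% on day 6, and 3319 ± 145 at 25% and 2728 ± 241 at 100% on day 3 (0.99, SE 0.11, adjusted p = 1.14e-06). KIF20A averaged 1792 ± 117 at 25% and 881 ± 113 at 100% on day 6, and 950 ± 66.2 at 25% and 1148 ± 31.4 at 100% on day 3 (1.30, SE 0.13, adjusted p = 3.99e-07). Both genes were higher at 25% and lower at 100% on day 6 than on day 3.

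Targets of ATF4 and CHOP stood higher against 100% on day 3 than on day 6. Of the 30 targets of ATF4 and CHOP 14 rose and 3 fell on day 3 (median log2 0.14), and the difference between days was called for 11, all lower. TRIB3 averaged 15974 ± 892 at 25% and 12761 ± 2084 at 100% on day 6, and 20929 ± 1296 at 25% and 4383 ± 318 at 100% on day 3 (-1.92, SE 0.12, adjusted p = 1.85e-10). Its level at 100% was higher on day 6. ASNS differed between days by -0.71 (SE 0.13, adjusted p = 0.000763), CEBPG by -0.63 and WARS1 by -1.04. TXNIP rose on both days and by more on day 6, a difference of 1.17 (SE 0.13, adjusted p = 1.04e-06), while SNHG12 did not pass (-0.25, SE 0.23, adjusted p = 0.649). DNTT averaged 2136 ± 70.6 at 25% and 7199 ± 238 at 100% on day 6, and 5255 ± 57.8 at 25% and 7591 ± 221 at 100% on day 3 (-1.22, SE 0.07, adjusted p = 4.56e-11), so here it was the 25% level that was lower on day 6.

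**Figure D4:**
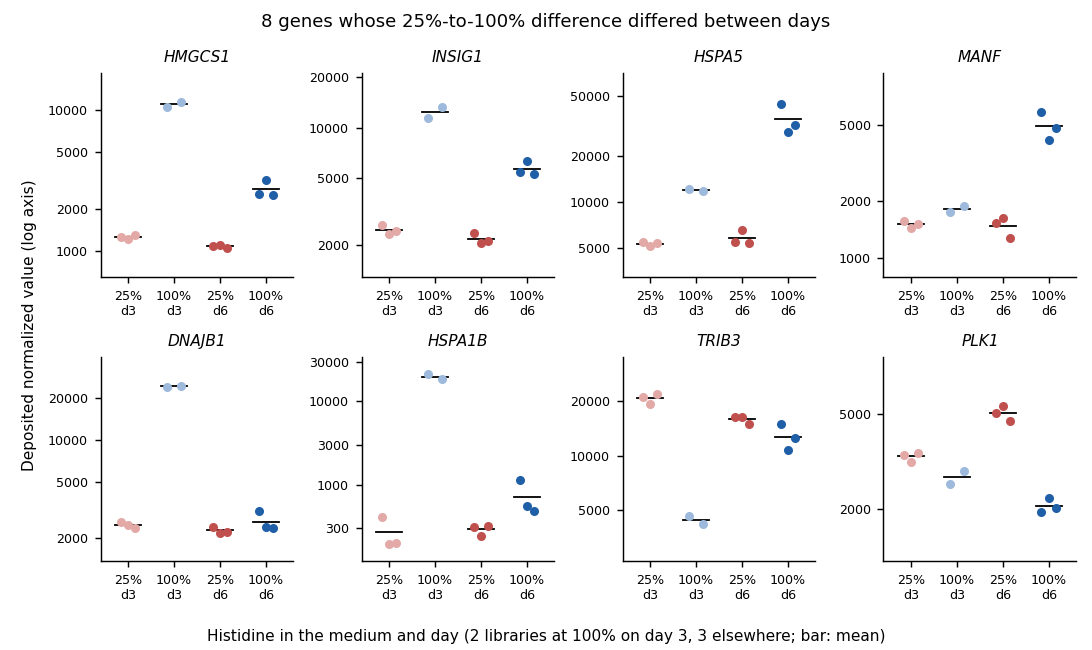
Deposited normalized values (log axes) of 8 genes at 25% (red) and 100% histidine (blue) on day 3 (pale) and day 6 (dark), 1 point per library with a bar at the mean. HMGCS1, INSIG1, DNAJB1 and HSPA1B were highest at 100% on day 3, HSPA5 and MANF at 100% on day 6, and PLK1 at 25% on day 6.

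Neighbouring histidine levels on day 6 put the comparison in order. At 50%, 1 gene of 22994 (0.00435%) was called by limma against 100%, and 1098 had an unadjusted p under 0.05. Without any difference a share of 0.05 of the genes would have such a p, and 1098 of 22994 does not exceed that share. That gene was HMGCS1 (log2 -0.46, SE 0.07, adjusted p = 0.0129). This contrast and the 25% contrast share the 3 libraries at 100%, and 25% was not tested against 50%. From 12.5% to 25%, 50% and 100%, the mean of TXNIP was 9481, 12792, 457 and 519, that of HSPA5 6694, 5774, 45154 and 35059, and that of PLK1 4317, 5012, 2075 and 2068. For these 3 genes the levels at 12.5% and 25% lay on one side and those at 50% and 100% on the other.

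The step from 25% down to 12.5% was tested directly, with 2 libraries at 12.5%. It gave 201 called genes (0.874%), 47 higher (0.204%) and 154 lower (0.67%) at 12.5%, but only 12 with the compared groups alone in the fit and 32 with library position. Leaving out replicate 1 or 2 at 12.5% gave 82 and 74 genes, and leaving out replicate 2 or 3 at 25% gave 113 and 322. DNTT averaged 725 ± 33.7 at 12.5% (n = 2) and 2136 ± 70.6 at 25% (n = 3), a further fall (log2 -1.56, SE 0.06, adjusted p = 3.67e-16). RAG1 averaged 2863 ± 261 at 12.5% and 6525 ± 611 at 25% (-1.19, SE 0.12, adjusted p = 6.49e-06), and MYC fell by 0.73 (SE 0.08, adjusted p = 6.49e-06). SREBF2 fell by 0.60. ARRDC3 averaged 3412 ± 74.1 at 12.5% and 1105 ± 62.1 at 25% (1.63, SE 0.10, adjusted p = 1.43e-10). FTH1 rose by 0.57 and TOX2, a T-cell transcription factor, by 1.09. HMGCS1 (0.02, SE 0.08), HSPA5 (0.22, SE 0.12) and PLK1 (-0.21, SE 0.08) were not called between these levels.

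By list, the step to 12.5% called 4 of 25 cholesterol genes and 4 of 16 fatty acid genes, all lower, and 7 of 49 T-lineage genes lower and 1 higher. No member of the lists of endoplasmic reticulum chaperones, G2/M genes, heat shock proteins, purine synthesis or small nucleolar RNA hosts was called. Only 0.874% of all tested genes were called at this step, so a list of this size without a called member says little. TXNIP was at -0.43 (SE 0.09, adjusted p = 0.0210), a call lost in 7 settings. CCM2L, DSCAML1, GAREM1 and IFTAP, named by the size of their fall, were each at a mean of at most 195 at 25% and lost their calls without replicate 2 at 12.5%, among other settings.

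**Figure D5:**
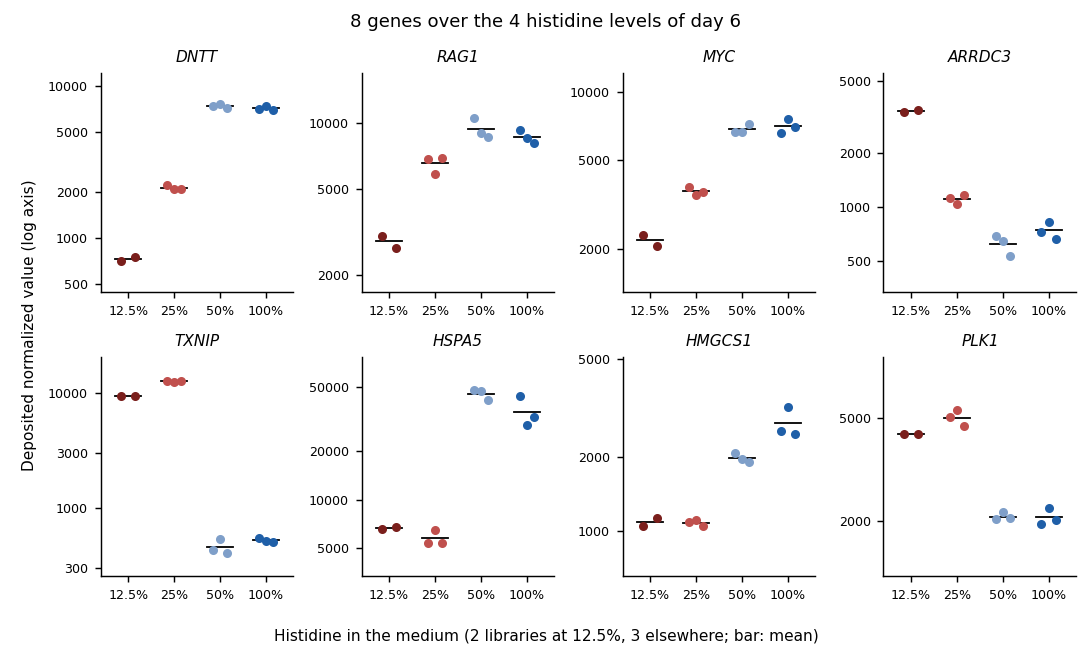
Deposited normalized values (log axes) of 8 genes at 12.5%, 25%, 50% and 100% histidine on day 6, 1 point per library with a bar at the mean. DNTT, RAG1 and MYC fell and ARRDC3 rose again at 12.5% against 25%, while in TXNIP, HSPA5, HMGCS1 and PLK1 the 2 lower levels lay on one side of 50% and 100%.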

How the data were processed

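RNA sequencing libraries of Jurkat cells were deposited as 1 table of 36755 genes in 25 libraries. The deposited values are a signal that is never negative, normalized by the authors with DESeq2, so they are not raw counts. FastQC 0.11.9, kallisto 0.50.1, DESeq2 1.44.0 and the build GRCh38 are named, without an order, per the submitters' processing notes. The annotation and any use of strand are not stated there. Whole reads could not be recovered: 55.3% to 75.4% of low values per library (up to 20 reads) were whole multiples within a tolerance of 0.05. No count model was therefore used, depth is unknown, and no counting interval is given. No 2 libraries held identical values.

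The values were tested as log2(value + 1) with limma 3.58.1 (trend and robust moderation, R 4.3.3) in 1 fit of 9 groups, for the 22994 genes that reached a value of 10 in 2 or more libraries. P-values were Benjamini-Hochberg adjusted over all tested genes, and 0.05 was the threshold. The fold changes understate the change of low genes because of the pseudocount. Linear folds are ratios of group means. The fit was run on simulated data with independent normal noise and no outlying library. It recovered 84% of 100 changes of log2 size 1 and 94% of 100 of size 2, with 7 false calls. The simulation does not cover a library such as replicate 2 at 25%, which holds heart muscle transcripts. The comparisons were 25% against 100% on day 6, the difference of this contrast between day 6 and day 3, whose 4 groups share no library, and 12.5% against 25% on day 6. Replicate numbers did not pair the samples of 25% and 100% on day 6: over genes, the deviations of libraries with the same number had correlations of -0.00792, 0.00485 and 0.033. Nor did every pair pass 0.1 for 12.5% and 25% (0.0313 and 0.0479), for 25% and 100% on day 3 (-0.0147 and 0.000488) or for 50% and 100% on day 6 (0.0635, 0.0295 and 0.192, the last for replicate 3).

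The members and the 43 gene lists were chosen with earlier results of these data known. Of 1023 list entries, 1008 were in the table. Named were the 12 largest rises and the 12 largest falls whose groups did not overlap, with a mean of at least 50 in a group and still called without replicate 2 at 25%, the 8 smallest p among them, up to 5 called members per direction of each list, called members that went against their list, and 12 fixed genes. For the difference between days and for 12.5% against 25%, the 8 largest in each direction were taken. Genes named beside these, such as MKI67, HSP90B1, HMGB2 and the other list members given by a log2 difference alone, were chosen after their values had been seen. Some genes that the rule takes are not reported here. Coordinates of genes are from GENCODE on GRCh38. A separate reference of gene symbols, older symbols and gene IDs matched 36399 of the names or IDs. Promoter windows are from RefSeq on GRCh38.p14 (35093 windows, 27305 genes), and the motif search was chosen after the values were seen. Of the 5 motifs searched, 4 are given above, and the other was a C/EBP-ATF response element (TGATGNAA). It was present for 4.46% of all genes. Among listed targets of ATF4 and CHOP, which went both ways, it was present for 7 of 25 with a window (28%). Alternatives were other pseudocounts, filters, scalings, moderation, fits and left-out libraries.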

Additional observations from a re-analysis of the deposited data

Results flagged for a closer look

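The contrast of 25% against 100% histidine differed between day 6 and day 3 for 1086 genes, by the limma test of that difference itself. All values here are log2 differences of 25% minus 100%, day 6 minus day 3, with an adjusted p under 0.05.

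The contrast was higher on day 6 for the heat shock genes HSPA1B (5.10), HSPA6 (4.76), DNAJB4 (3.14), DNAJB1 (3.10) and HSPA1A (2.84). HSPA1A and HSPA1B are near-identical copies. The same held for IER5L (3.32), RHOB (3.22) and JUN (2.39), which are immediate early or stress-induced genes. It also held for the sterol genes HMGCS1 (1.78) and INSIG1 (0.94), for the mitotic genes KIF20A (1.30) and PLK1 (0.99), and for TXNIP (1.17).

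The contrast was lower on day 6 for RIGI, the cytosolic RNA sensor (-5.13), KLHDC7B (-2.70), ST8SIA6 (-2.38), IL31RA (-2.13), ADAMTS18 (-2.02), REPS2 (-1.86) and MACROD2 (-1.65). It was lower as well for TRIB3 (-1.92) and DDIT3 (-1.06), for the endoplasmic reticulum genes MANF (-1.47) and HSPA5 (-1.41), and for DNTT (-1.22). The calls of RHOB, JUN, RIGI, IL31RA, ADAMTS18 and REPS2 were lost under at least 1 of the settings tried. The 100% group of day 3 has 2 libraries, and the reasons for these differences were not tested.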

How the results depend on the processing

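For 25% against 100% on day 6, the count of 4645 called genes became 3012 with library position in the fit. Leaving out 1 library gave 3670 to 4239 genes. Leaving out both libraries that stand apart, an alternative chosen after seeing the data, gave 3226. TUBB and PABPC1 changed sign under quantile normalization, to log2 differences of 0.0052 and 0.0042. Of 291 named genes called, 213 kept the call in all settings tried and 78 lost it in at least 1. The difference between days, 1086 genes, became 407 with library position, and 654 to 1057 when 1 library was left out. The step from 25% to 12.5%, 201 genes, became 32 with library position, 113 with neither trend nor robust moderation, 12 when the fit held the compared groups alone, and 74 to 322 when 1 library was left out. The causes were not tested.

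With the replicate number as a block, 4594, 1092 and 190 genes were called in these 3 comparisons, so the block moved no count by over 1.5 times. The samples share only a number. Depth is unknown, so the precision of single values rests on the spread between libraries alone.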

Other observations

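Gene families were also picked by name, after the values were seen. Some share members with the lists, such as KIF11, KIF20A and KIF23 of the G2/M list and the amino acid transporters among solute carriers. Of 38 proteasome subunits 19 rose and 5 fell at 25% on day 6 (median log2 0.19, against -0.02 over all genes, of which 11% rose and 9.24% fell), with PSMD11 at 0.41 and PSMC4 at -0.44. Of the 14328 genes that reached 50 in 3 or more libraries, 2668 rose and 2189 fell, both larger shares than over all genes. ADRM1, a ubiquitin receptor of the proteasome, held 4921, 5059 and 4342 at 25%, against 2608, 2481 and 2664 at 100% (log2 0.88). UBB, a polyubiquitin gene, rose by 0.69. Of 34 ubiquitin-conjugating enzymes 13 rose and 0 fell.

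Of 35 kinesins 15 rose and 1 fell, and KIF4A, a chromosome-binding kinesin, rose by 1.38. Of 21 nuclear ribonucleoprotein genes, which bind and splice pre-mRNA, 14 rose and 1 fell: HNRNPL rose by 0.78 and HNRNPA1 fell by 0.83. Of 30 Mediator subunits 11 rose and 1 fell. In the other direction, 44 of 276 solute carriers fell and 17 rose and 9 of 46 glycosyltransferases fell and 1 rose. For both families the share called in either direction was close to the 20.2% of all tested genes. Among genes that reached 50 in 3 or more libraries, 2189 of 14328 fell, a share close to that of solute carriers. Also searched were 463 zinc finger (ZNF) genes, of which 37 rose and 26 fell, and 597 long noncoding (LINC) genes, of which 9 rose and 31 fell. Of 22 vacuolar ATPase genes 10 rose and 2 fell. Among single genes, LGMN, a lysosomal protease, fell by 1.95, AQP3, a water and glycerol channel, by 1.504, IGFBP2 by 1.47 and the integrin ITGA4 by 1.36.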
